A study of Mus musculus with 24 samples.

Results

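The cell cycle and mitosis genes described here are 46 genes of the mouse, chosen by their symbols: 29 that act in mitosis or mark dividing cells, and 17 that act in G1 and S phase. Each symbol matched 1 Ensembl row of the deposited expression tables, which hold 55469 genes for each tissue. The samples were pieces of brain and liver from male C57BL/6N mice of 4 genotypes, matched for age: WT littermates, and mice homozygous for a CRISPR-Cas9 deletion of a single gene of the family that makes the phenylalanine tRNA with the GAA anticodon (the lines tRNA-Phe-1-1-/-, then tRNA-Phe-2-1-/-, and lastly tRNA-Phe-3-1-/-). Total RNA was sequenced from 3 replicates of each genotype and tissue, 24 samples in all, with the letters A, B and C. By the study's methods the RNA of each genotype came from different mice, though the labels tie no replicate to a mouse. The mice ate normal chow, and each line carries its deletion in every cell of the body. All values are from whole tissue, in which fewer cells of a type and less RNA per cell cannot be told apart.

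A cell that is to divide first passes G1, in which the MCM helicase is loaded onto DNA. In G1, D and E cyclins and the E2F factors also switch on the genes of DNA synthesis. S phase follows, in which the loaded helicase is fired and PCNA clamps the polymerases to DNA. Then come G2 and mitosis, in which Cdk1 with cyclin B drives chromosome condensation, kinetochore attachment and spindle movement. Most mRNAs of the mitotic apparatus are made only in cells in late S phase, G2 and M, so in a tissue they follow the dividing cells. In adult liver the hepatocytes rest outside the cycle but can re-enter it, while in adult brain neurons do not divide and the dividing cells are progenitors, glial precursors and cells of vessels and blood.

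The promoters of these genes are known for a few short elements: the cell cycle genes homology region (CHR) and CCAAT boxes of genes made in G2 and M, and E2F sites of genes made in G1 and S phase. RefSeq promoters (GRCm38.p6) were matched for 39 of the 46 genes, 25 of the mitosis genes and 14 of the G1 and S phase genes. In the 250 bases before the start, on either strand, the CHR letters TTTGAA were found in 36% of the mitosis genes (9), in 14.3% of the G1 and S phase genes (2) and in 16.3% of all 27025 promoters. The CCAAT letters were found in 84% of the mitosis genes (21), 57.1% of the G1 and S phase genes (8) and 34.5% of all promoters, and at least 2 CCAAT in 56%, 28.6% and 10.5%. E2F letters (TTTCCCGC, TTTGGCGC, TTTCGCGC or TTTGCCGC, which can overlap each other on opposite strands) were found in 8% of the mitosis genes (2), 28.6% of the G1 and S phase genes (4) and 1.91% of all promoters. These matches are a description of letters. The 120 bases before the start are printed for 6 genes whose expression is described below, 5′ to 3′ on the gene's own strand, with the CHR, CCAAT and E2F letters of either strand in capitals. For Top2a the promoter start lies inside the listed span of the gene (chr11:98992947-99024199), so its stretch runs partly into the gene. Kif11 (chr19:37376262-37376381, plus strand) and Top2a (chr11:99024190-99024309, minus strand) show a CHR close to the start and CCAAT farther out, Ccnb1 (chr13:100786487-100786606, minus strand) shows CCAAT alone, Mcm6 (chr1:128359706-128359825, minus strand) shows E2F letters with CCAAT, and Rrm2 (chr12:24708134-24708253, plus strand) and Pcna (chr2:132253181-132253300, minus strand) show a single CCAAT.
Kif11: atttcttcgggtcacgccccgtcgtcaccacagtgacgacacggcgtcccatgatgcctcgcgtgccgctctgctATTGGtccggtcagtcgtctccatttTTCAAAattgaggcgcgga
Top2a: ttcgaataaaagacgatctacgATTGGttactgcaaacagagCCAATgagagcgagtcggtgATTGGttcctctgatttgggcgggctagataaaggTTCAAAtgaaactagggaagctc
Ccnb1: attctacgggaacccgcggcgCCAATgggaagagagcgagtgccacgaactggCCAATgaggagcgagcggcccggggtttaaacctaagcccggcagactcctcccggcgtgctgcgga
Mcm6: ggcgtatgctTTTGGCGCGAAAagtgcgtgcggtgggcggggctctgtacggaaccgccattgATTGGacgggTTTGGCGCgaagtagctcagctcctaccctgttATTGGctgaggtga
Rrm2: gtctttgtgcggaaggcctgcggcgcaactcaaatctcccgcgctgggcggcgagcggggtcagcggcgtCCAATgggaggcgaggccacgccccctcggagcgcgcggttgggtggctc
Pcna: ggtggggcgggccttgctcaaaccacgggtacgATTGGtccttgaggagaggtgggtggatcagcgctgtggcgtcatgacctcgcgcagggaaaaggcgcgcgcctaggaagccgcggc

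Read totals recovered from the tables were 30365760 to 46225360 per brain and 32276896 to 51584522 per liver, and the 6 hepatocyte markers summed to 2506000 to 3876000 normalised counts in livers against 38.5 to 50710 in brains, where Ttr is also made by the choroid plexus. A normalised count is the number of reads of a gene after division by the sample's size factor, so it can be compared between samples of a tissue but not between genes. A difference was called at a limma adjusted p under 0.05 over all genes of the tissue that averaged 10 normalised counts or more, 15856 genes in liver and 19228 in brain, and fold changes are differences of log2(normalised count + 1) with their SE. Of the 46 genes, 44 passed this filter in each tissue. Melk and Cdc6 did not in liver and Ube2c and Ttk did not in brain, while Bub1, Plk1, Ube2c and Ttk in liver and Aurkb in brain passed only through the tRNA-Phe-3-1-/- samples. In liver, replicates A and C of tRNA-Phe-3-1-/- stood apart from replicate B and from the other 9 livers in the mitosis genes. Some results that involve this line are therefore also given without them, and all others include them. Neither replicate was unusual in depth, with 43737347 and 45018766 reads, and replicate B had 37310878 reads. Genes above 0 numbered 22031, 20995 and 21520 in replicates A, B and C of this line. Replicate A had the most such genes of all livers and replicate B the fewest.

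In liver, the mitosis genes split the tRNA-Phe-3-1-/- line: 2 of its 3 livers had much more of these mRNAs than the WT livers, and the third did not. Summed over the 29 genes, the normalised counts were 1066, 1177 and 1178 in WT replicates A, B and C and 2941, 1138 and 3562 in tRNA-Phe-3-1-/-. Averaged over the 29 genes, the score of a sample (the mean log2 deviation from the 12-liver mean) was -0.59, -0.12 and -0.18 in WT replicates A, B and C and 1.30, -0.33 and 1.54 in tRNA-Phe-3-1-/-. The corresponding scores were -0.35, 0.35 and -0.91 in tRNA-Phe-1-1-/- and -0.41, -0.09 and -0.22 in tRNA-Phe-2-1-/-. Replicates A and C of tRNA-Phe-3-1-/- were thus far above every other liver, replicate B lay inside the WT range, and the next highest liver was tRNA-Phe-1-1-/- B. Replicates A and C were the 2 highest of the 12 livers for 23 of the 29 mitosis genes and for 3 of the 17 G1 and S phase genes (Mcm4, Mcm5 and Mcm6), beside 2.43% of all genes tested; this pattern was counted after the values had been seen. The mitosis genes without it were Kif23, Cenpf, Cenpa, Tpx2, Ncapd2 and Melk.

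**Figure D1:**
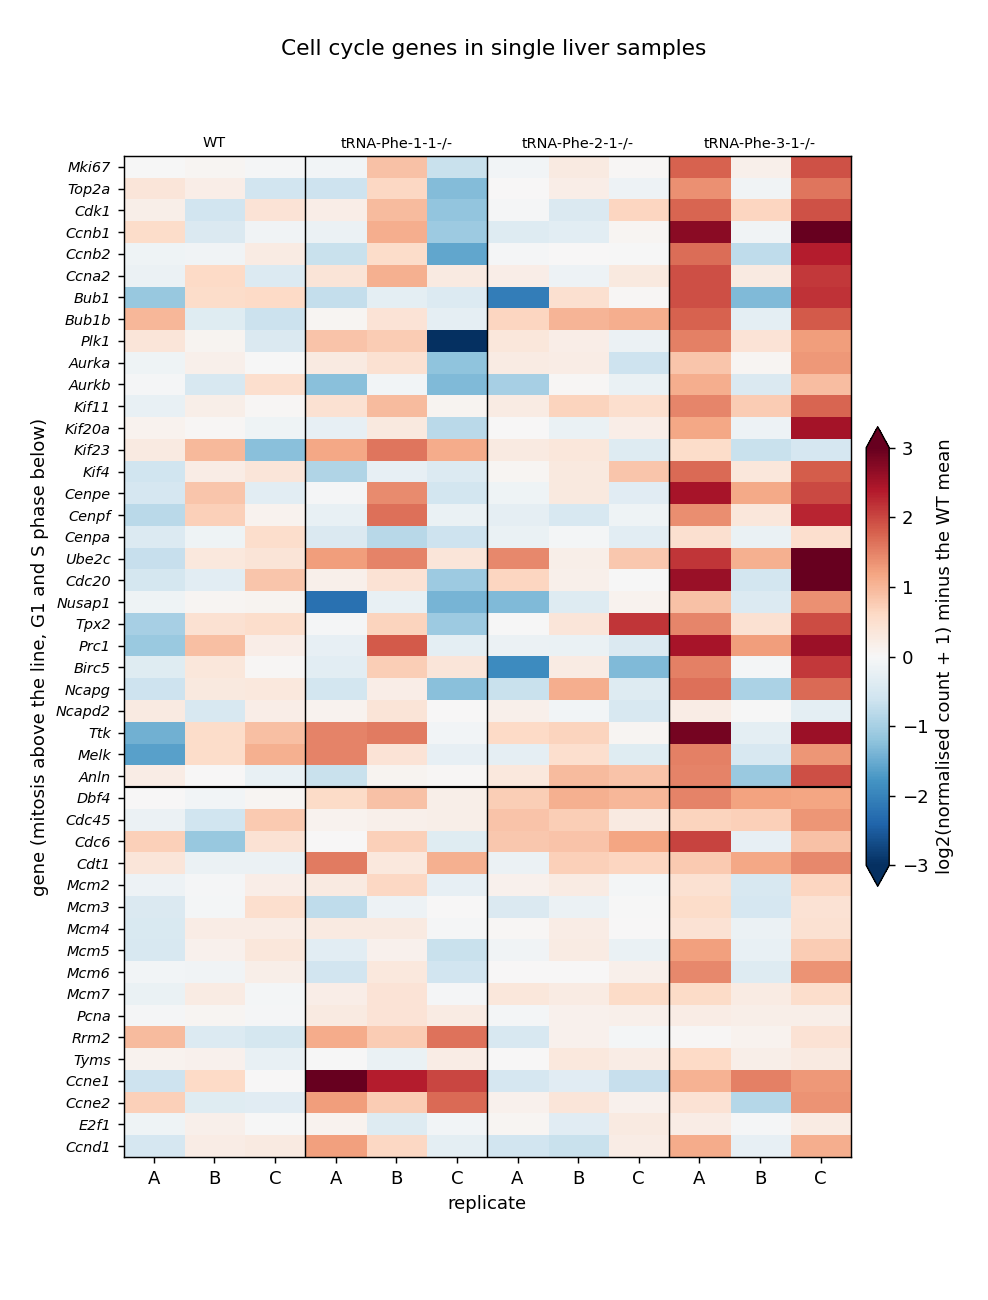
Each row is a cell cycle gene and each column a single liver; colour is log2(normalised count + 1) minus the WT mean, capped at 3 in either direction. The mitosis genes above the line are red in tRNA-Phe-3-1-/- replicates A and C and near the WT level in replicate B, and Ccne1 is red in all 3 tRNA-Phe-1-1-/- livers.

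Mki67, whose product Ki-67 coats mitotic chromosomes and marks cycling cells, was read at 144, 151 and 143 normalised counts in the WT livers and 503, 163 and 549 in the tRNA-Phe-3-1-/- livers. The values were 137, 271 and 92.1 in tRNA-Phe-1-1-/- and 137, 176 and 149 in tRNA-Phe-2-1-/-. Replicates A and C of tRNA-Phe-3-1-/- were thus far above the WT livers and replicate B just above them. Ccnb1, the cyclin B that activates Cdk1 for entry into mitosis, was at 14.7, 6.92 and 9.08 in WT and 69.2, 9.0 and 157 in tRNA-Phe-3-1-/-, a 7.66-fold ratio of means that rested on replicates A and C. The other lines held 8.47, 22.0 and 4.09 (tRNA-Phe-1-1-/-) and 7.21, 7.61 and 10.1 (tRNA-Phe-2-1-/-), within the WT range except for tRNA-Phe-1-1-/- B above it and C below it. Top2a, the topoisomerase that untangles sister chromatids, was at 142, 126 and 73.9 in WT and 286, 101 and 334 in tRNA-Phe-3-1-/-. Against WT, the log2 difference of tRNA-Phe-3-1-/- was 1.28 ± 0.44 (SE) for Mki67 with an adjusted p of 0.184 and 2.16 ± 0.85 for Ccnb1 with an adjusted p of 0.244, and neither was called by limma. DESeq2 on the recovered reads called both (1.47 with an adjusted p of 0.0171 and 2.93 with an adjusted p of 0.0134), and edgeR neither. Without replicates A and C both, the difference was 0.16 for Mki67 and -0.11 for Ccnb1.

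Kif11, Cenpe, Prc1 and Kif4, which move or bundle spindle microtubules, were highest in the same 2 livers, and for Kif11, Cenpe and Prc1 replicate B was also above every WT liver. Kif11, the kinesin that pushes the spindle poles apart (chr19:37376382-37421863), was read at 39.1, 51.4 and 46.7 in WT, 63.0, 88.2 and 48.1 in tRNA-Phe-1-1-/-, 53.7, 72.9 and 64.5 in tRNA-Phe-2-1-/- and 128, 77.6 and 156 in tRNA-Phe-3-1-/-. Every tRNA-Phe-3-1-/- and tRNA-Phe-2-1-/- liver exceeded all 3 WT livers. The genotypes differed in Kif11 by the moderated F-test over the 4 genotypes (adjusted p 0.0365), the only mitosis gene called by it, while the single contrast of tRNA-Phe-3-1-/- with WT, 1.33 ± 0.29, had an adjusted p of 0.0590. Cenpe, the kinetochore motor that aligns chromosomes, was at 14.7, 38.5 and 16.9 in WT and 122, 48.4 and 86.5 in tRNA-Phe-3-1-/-. Prc1, which bundles the microtubules of the central spindle, was at 8.79, 38.5 and 23.4 in WT and 117, 49.5 and 124 in tRNA-Phe-3-1-/-. Both were lowest in replicate B among the tRNA-Phe-3-1-/- livers, with log2 differences of 1.86 ± 0.53 (adjusted p 0.118) and 2.10 ± 0.63 (adjusted p 0.134). DESeq2 called Kif11, Cenpe and Prc1 against WT (adjusted p 0.00139, 0.0269 and 0.0345), and edgeR called none of them. Without replicates A and C both, the log2 differences of these genes from WT were smaller but still positive. Kif4, a chromosome-bound kinesin that works with Prc1, was at 10.8, 19.8 and 22.1 in WT and 56.7, 21.4 and 61.3 in tRNA-Phe-3-1-/-, so that replicate B fell among the WT livers. Without replicates A and C both, the log2 difference of Kif4 from WT was 0.33. Cenpf, a kinetochore protein made in G2, was at 19.5, 58.3 and 37.6 in WT and 93.2, 45.0 and 174 in tRNA-Phe-3-1-/-, but tRNA-Phe-1-1-/- B, at 113, lay above tRNA-Phe-3-1-/- A.

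Most of the other mitosis genes followed the same 2 livers. Cdc20 and Ube2c, which direct the anaphase-promoting complex, had ratios of means to WT of 5.51 and 5.82 in tRNA-Phe-3-1-/-, and the kinase Ttk of the spindle checkpoint 4.30, where Ube2c and Ttk were below a value of 10 in every WT liver. Ccna2, Ccnb2, Cdk1, Kif20a, Birc5 and Bub1 had ratios between 2.68 and 3.07, and Aurka, Aurkb, Plk1, Bub1b, Ncapg, Anln, Tpx2, Nusap1 and Melk ratios between 1.56 and 2.48. Plk1 was also below 10 in every WT liver. In Tpx2 the highest liver was tRNA-Phe-2-1-/- C, at 84.8. In Melk tRNA-Phe-1-1-/- A, at 16.0, lay above tRNA-Phe-3-1-/- C, at 14.1. The genes in which replicates A and C did not stand apart included Cenpa, the histone H3 variant of centromeres (124, 151 and 240.0 in WT, 232, 144 and 235 in tRNA-Phe-3-1-/-), and Ncapd2, a condensin subunit (167, 97.8 and 158 in WT, 161, 137 and 112 in tRNA-Phe-3-1-/-). Kif23, the motor of the central spindle in cytokinesis, was distributed the other way: it was at 35.2, 58.3 and 11.7 in WT, 43.2, 18.0 and 20.1 in tRNA-Phe-3-1-/- and 65.9, 89.9 and 64.5 in tRNA-Phe-1-1-/-. Its log2 difference of tRNA-Phe-3-1-/- from tRNA-Phe-1-1-/- was -1.50 ± 0.51 (adjusted p 0.0675), and its difference of tRNA-Phe-1-1-/- from WT was 1.29 ± 0.51 (adjusted p 0.106).

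Over the 29 mitosis genes the median log2 difference of tRNA-Phe-3-1-/- from WT was 1.16, with 27 genes higher and 2 lower, beside a median of 0.0086 over all genes tested. None of the 28 mitosis genes tested was called in this contrast by limma, beside 0.883% of all genes. An unadjusted p under 0.05 was found for 11 of them, beside 2550 of all 15856 genes tested. Among the 11 was Ube2c, which like Bub1, Plk1 and Ttk passed the filter only through the tRNA-Phe-3-1-/- livers. Without replicates A and C the median was -0.11 for the remaining tRNA-Phe-3-1-/- liver, and leaving out a single replicate gave 1.03 (A), 1.80 (B) and 0.73 (C). In tRNA-Phe-1-1-/- and tRNA-Phe-2-1-/- the medians were -0.056 and 0.0075. The sign of both changed with the liver left out: the former ran from -0.47 (without tRNA-Phe-1-1-/- B) to 0.31 (without tRNA-Phe-1-1-/- C) and the latter from -0.055 to 0.12. These lines had 3 and 0 mitosis genes at an unadjusted p under 0.05, beside 5044 and 2365 of 15856 genes, and none called. The difference between lines was called for 3 of 28 mitosis genes between tRNA-Phe-3-1-/- and tRNA-Phe-1-1-/-, beside 16.1% of all genes, all higher in the former: Kif4 (log2 difference 1.80 ± 0.44, adjusted p 0.0183), Cenpa (0.89 ± 0.25, adjusted p 0.0345) and Nusap1, which bundles spindle microtubules around chromatin (1.89 ± 0.57, adjusted p 0.0447). In Nusap1 tRNA-Phe-1-1-/- itself was low, at 4.71, 22.0 and 9.21 against 23.4, 26.7 and 27.2 in WT, and in Cenpa it was at 121, 92.6 and 107. All 3 calls were lost without tRNA-Phe-1-1-/- A, tRNA-Phe-3-1-/- A or tRNA-Phe-3-1-/- C.

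**Figure D2:**
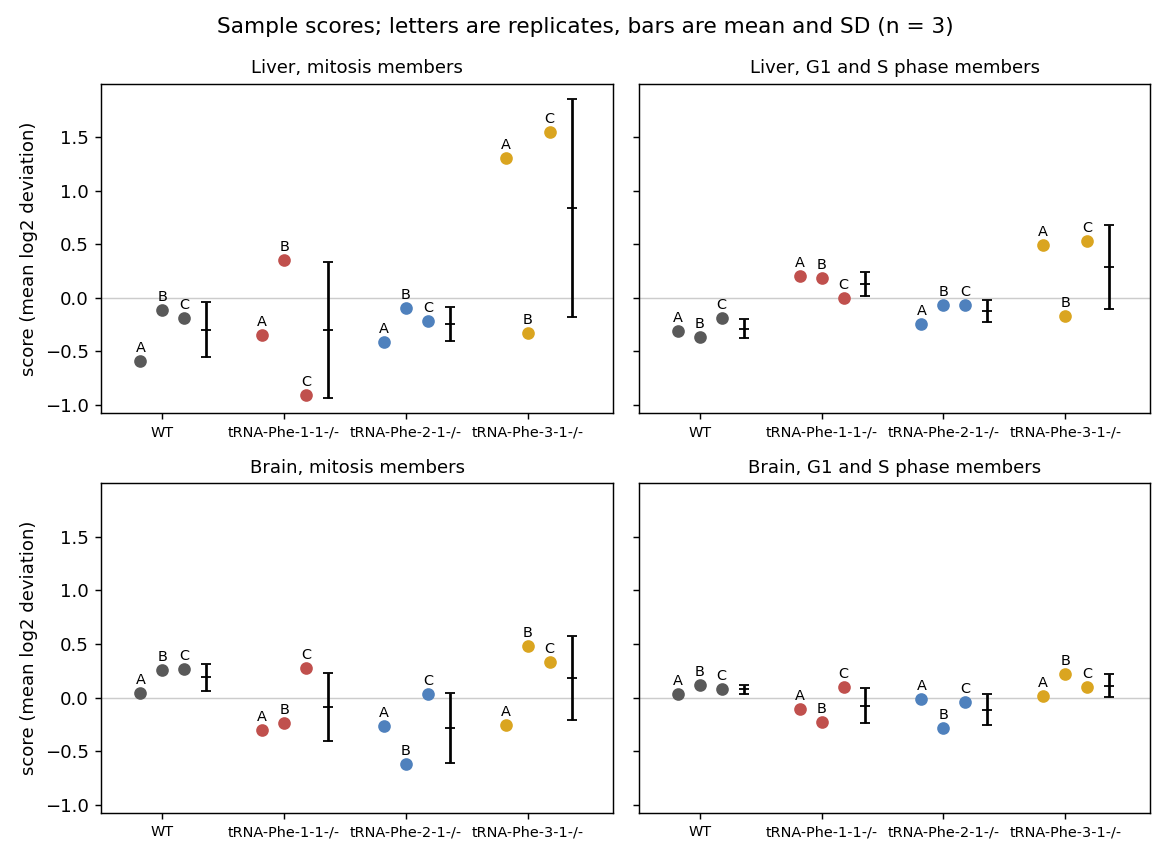
Each point is a sample; the vertical axis is its mean log2 deviation from the 12-sample mean of its tissue over the 29 mitosis genes (left) or the 17 G1 and S phase genes (right), and bars are mean and SD of the 3 replicates. In liver, tRNA-Phe-3-1-/- replicates A and C lie at 1.30 and 1.54 for mitosis; in brain every tRNA-Phe-2-1-/- sample lies below every WT sample in both panels.

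The G1 and S phase genes moved less and were spread over more lines. Their scores were -0.31, -0.36 and -0.19 in the WT livers, 0.21, 0.18 and 0.00 in tRNA-Phe-1-1-/-, -0.24, -0.07 and -0.06 in tRNA-Phe-2-1-/- and 0.49, -0.17 and 0.53 in tRNA-Phe-3-1-/-. The 3 WT livers and the tRNA-Phe-1-1-/- livers did not overlap, and tRNA-Phe-3-1-/- again split into replicates A and C above and replicate B just above the WT range. The median log2 difference from WT was 0.20 in tRNA-Phe-1-1-/-, 0.093 in tRNA-Phe-2-1-/- and 0.45 in tRNA-Phe-3-1-/-, where all 17 genes had a positive difference. Without replicates A and C the last value was -0.046, and without replicate B it was 0.89.

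In tRNA-Phe-1-1-/- livers Ccne1, Rrm2 and Pcna rose, the only members called against WT in this line. That is 3 of 44 members tested, beside 17.3% of all genes, and the share of members is the smaller. The count was 1, Ccne1 alone, without WT C or without tRNA-Phe-1-1-/- A. Ccne1 (ENSMUSG00000002068.16, chr7:38097984-38107490), the cyclin E that with Cdk2 starts S phase, was read at 8.79, 21.7 and 14.3 in WT, 126, 75.8 and 59.4 in tRNA-Phe-1-1-/-, 9.62, 10.9 and 8.30 in tRNA-Phe-2-1-/- and 29.8, 41.6 and 36.2 in tRNA-Phe-3-1-/-. All tRNA-Phe-1-1-/- livers were above every other liver, and all tRNA-Phe-3-1-/- livers, replicate B included, were above WT and tRNA-Phe-2-1-/-. The log2 difference from WT was 2.48 ± 0.36 in tRNA-Phe-1-1-/- (adjusted p 0.00112) and 1.28 ± 0.36 in tRNA-Phe-3-1-/- (adjusted p 0.117). The lines differed directly, with tRNA-Phe-1-1-/- minus tRNA-Phe-2-1-/- at 2.99 ± 0.36 (adjusted p 0.000480) and tRNA-Phe-3-1-/- minus tRNA-Phe-1-1-/- at -1.20 ± 0.36 (adjusted p 0.0440). The call against WT held without any single liver, with adjusted p between 0.00167 and 0.00657.

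Rrm2 (ENSMUSG00000020649.11, chr12:24708254-24714146), the ribonucleotide reductase subunit that supplies deoxynucleotides, was read at 166, 63.2 and 58.4 in WT and 185, 146 and 265 in tRNA-Phe-1-1-/-. The other lines held 60.9, 92.4 and 82.0 (tRNA-Phe-2-1-/-) and 87.4, 91.1 and 115 (tRNA-Phe-3-1-/-). WT replicate A, at 166, lay among the tRNA-Phe-1-1-/- livers, so the groups overlapped, and the difference of 1.17 ± 0.36 had an adjusted p of 0.0469 that missed the threshold without WT B or C, without tRNA-Phe-1-1-/- A or C, and without any single liver of the other lines (0.0552 to 0.175). The call was also lost by edgeR (adjusted p 0.0779), without a filter, without the variance trend and after quantile scaling. Pcna (ENSMUSG00000027342.14, chr2:132249286-132253180), the sliding clamp of DNA polymerases, was at 678, 726 and 673 in WT and 839, 924 and 823 in tRNA-Phe-1-1-/-, without overlap, and at 669, 756 and 772 in tRNA-Phe-2-1-/- and 812, 785 and 776 in tRNA-Phe-3-1-/-. The tRNA-Phe-1-1-/- difference was small, 0.31 ± 0.09 (adjusted p 0.0273), and the adjusted p lay between 0.0616 and 0.0915 without WT A or C or without tRNA-Phe-1-1-/- A or B. Ccne2 and Cdt1, the second cyclin E and the licensing factor that loads MCM, had differences of 1.24 ± 0.50 (adjusted p 0.113) and 0.98 ± 0.36 (adjusted p 0.0804) in this line.

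Dbf4 (ENSMUSG00000002297.16, chr5:8396969-8422725), the activator of the Cdc7 kinase that fires replication origins, was higher in every knockout liver than in any WT liver. The values were 70.3, 65.2 and 72.6 in WT, 104, 129 and 78.8 in tRNA-Phe-1-1-/-, 115, 146 and 139 in tRNA-Phe-2-1-/- and 195, 162 and 159.9 in tRNA-Phe-3-1-/-. The 9 knockout livers did not overlap with the 3 WT livers, and the tRNA-Phe-3-1-/- livers did not overlap with the other lines. Dbf4 was the only member called in tRNA-Phe-3-1-/- against WT (1.29 ± 0.19, adjusted p 0.0229), 1 of 44 members tested beside 0.883% of all genes. The differences of 0.93 ± 0.19 in tRNA-Phe-2-1-/- (adjusted p 0.0767) and 0.55 ± 0.19 in tRNA-Phe-1-1-/- (adjusted p 0.0708) missed the threshold, while tRNA-Phe-3-1-/- exceeded tRNA-Phe-1-1-/- by 0.75 ± 0.19 (adjusted p 0.0221) and the F-test gave an adjusted p of 0.00449. With tRNA-Phe-3-1-/- A and C left out, the remaining liver still differed from WT by 1.21, with an adjusted p of 0.0932, and the call was also lost without any single WT liver or without tRNA-Phe-3-1-/- B or C (0.0532 to 0.117), and with the replicate block (0.0601).

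**Figure D3:**
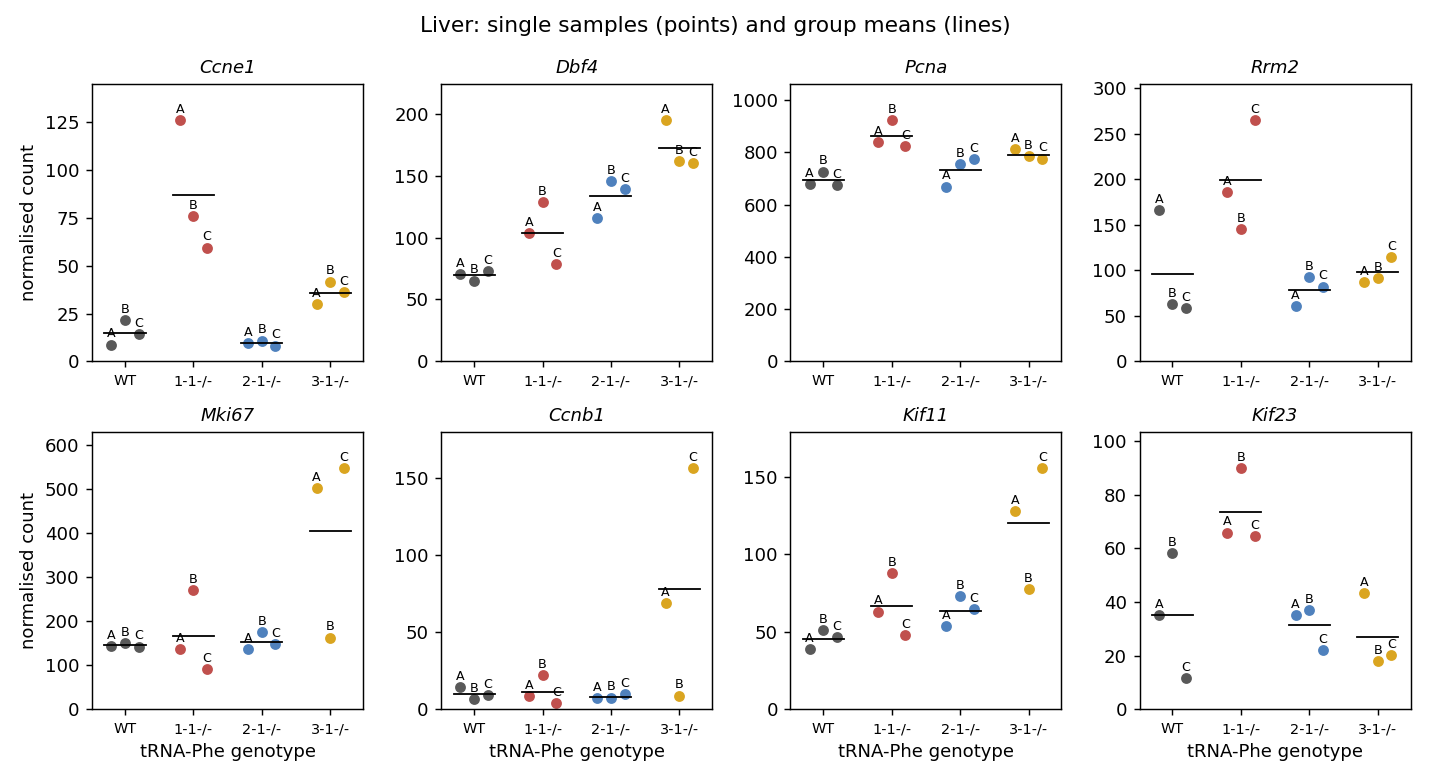
Normalised counts of 8 genes in the 12 livers, with points for samples, letters for replicates and lines for group means. Ccne1 is highest in the 3 tRNA-Phe-1-1-/- livers, Dbf4 is above WT in all 9 knockout livers, and Mki67, Ccnb1 and Kif11 are highest in tRNA-Phe-3-1-/- A and C, while Kif23 is not.

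Some of the helicase genes and cyclin D1 also separated the tRNA-Phe-3-1-/- livers A and C from replicate B. Mcm6, a subunit of the MCM helicase, was read at 163, 161 and 197 in WT, 116, 215 and 116 in tRNA-Phe-1-1-/-, 174, 174 and 193 in tRNA-Phe-2-1-/- and 475, 133 and 445 in tRNA-Phe-3-1-/-, where replicates A and C were over 2-fold above every other liver. Mcm2, another subunit, was at 119, 129.5 and 152 in WT and 182, 94.5 and 209 in tRNA-Phe-3-1-/-, with tRNA-Phe-1-1-/- B, at 205, in the same range. The ratio of means of tRNA-Phe-3-1-/- to WT ran from 1.13 (Mcm3) to 2.02 (Mcm6) over the 6 MCM genes. Ccnd1, the cyclin D1 that responds to growth signals in G1, was at 584, 974 and 1003 in WT, 1962, 1287 and 682 in tRNA-Phe-1-1-/-, 559, 519.8 and 976 in tRNA-Phe-2-1-/- and 1794, 696 and 1762 in tRNA-Phe-3-1-/-. It was thus highest in tRNA-Phe-1-1-/- A and in tRNA-Phe-3-1-/- A and C and had no contrast with WT at an unadjusted p under 0.05. Cdc45, the helicase cofactor, was at 21.5, 15.8 and 42.8 in WT and 39.4, 40.5 and 63.3 in tRNA-Phe-3-1-/-, with overlap (0.90 ± 0.35, adjusted p 0.234). Tyms, which makes thymidylate, was at 221, 224 and 178 in WT and 314, 232 and 247 in tRNA-Phe-3-1-/-, where all 3 livers were above WT. E2f1, the factor that drives these genes, had a ratio of means of 1.10, and Cdc6 and Mcm7 of 2.12 and 1.36.

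Counted over both groups of genes, the liver contrasts called few members. Against WT these were 3 in tRNA-Phe-1-1-/-, 0 in tRNA-Phe-2-1-/- beside 0.132% of all genes and 1 in tRNA-Phe-3-1-/- beside 0.883%. In tRNA-Phe-2-1-/-, 2 members (Dbf4 and Mcm7) had an unadjusted p under 0.05, beside 2365 of 15856 genes. The count in tRNA-Phe-3-1-/- was 0 without WT A, B or C or without tRNA-Phe-3-1-/- B or C, and 2 (Dbf4 and Kif11) without tRNA-Phe-1-1-/- B. For the 0 in tRNA-Phe-2-1-/-, edgeR on the recovered reads called 0 and DESeq2 called 1, Dbf4. Between lines, 2 members (Ccne1 and Rrm2, both higher in tRNA-Phe-1-1-/-) were called of tRNA-Phe-1-1-/- against tRNA-Phe-2-1-/-, beside 15.9% of all genes, and Ccne1 alone without tRNA-Phe-1-1-/- A or C or any tRNA-Phe-2-1-/- liver. Of tRNA-Phe-3-1-/- against tRNA-Phe-1-1-/- 5 were called (Dbf4, Kif4, Cenpa and Nusap1 higher, Ccne1 lower) beside 16.1%. This count depended on single livers: it was 19 without tRNA-Phe-3-1-/- B and 10 without tRNA-Phe-1-1-/- B, but 0 without tRNA-Phe-1-1-/- A, 2 without tRNA-Phe-1-1-/- C, 3 without tRNA-Phe-2-1-/- B or C, and 1 without tRNA-Phe-3-1-/- A (Kif23) or C (Dbf4). Of tRNA-Phe-3-1-/- against tRNA-Phe-2-1-/- 0 were called beside 0% of all genes, and edgeR and DESeq2 called 0 and 3. Here 13 members had an unadjusted p under 0.05, beside 1059 of 15856 genes. Ube2c, which passed the filter only through the tRNA-Phe-3-1-/- livers, was among them. The F-test over the 4 genotypes called 3 (Ccne1, Dbf4 and Kif11) beside 17% of all genes, and 16 without tRNA-Phe-3-1-/- B and 5 without tRNA-Phe-1-1-/- B. With each liver left out in turn, the F-test count ran from 2 to 16. Against WT, DESeq2 called 5 members in tRNA-Phe-1-1-/- beside 22% of all genes, 1 in tRNA-Phe-2-1-/- beside 3.12% and 8 in tRNA-Phe-3-1-/- beside 4.84%. Its other counts were 18 beside 21.8% for tRNA-Phe-3-1-/- against tRNA-Phe-1-1-/-, 3 beside 0.183% for tRNA-Phe-3-1-/- against tRNA-Phe-2-1-/-, and 23 beside 28.9% over all genotypes. edgeR called 1 in tRNA-Phe-3-1-/- against WT (Dbf4) beside 0.883%, 8 for tRNA-Phe-3-1-/- against tRNA-Phe-1-1-/- beside 16.1%, and 8 over all genotypes beside 17.3%. The 3 contrasts with WT share the WT livers.

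Further genes of the same pathways were taken from lists that held none of the 46. Of 54 further mitosis genes, 51 had a positive difference from WT in tRNA-Phe-3-1-/- livers, the median being 0.77 beside 0.0086 for all genes, and tRNA-Phe-3-1-/- A and C were the 2 highest livers for 27 of them, beside 2.43% of all genes. The gene called, 1 of 49 tested beside 0.883% of all genes, was Spc25, an Ndc80 kinetochore subunit, at 75.2, 101 and 83.0 in WT and 208, 168 and 189 in tRNA-Phe-3-1-/- (1.12 ± 0.20, adjusted p 0.0353), where replicate B was high too; without replicates A and C its difference was 0.96 (adjusted p 0.169). The call of Spc25 was also lost without any of 7 single livers (0.0583 to 0.144), without the variance trend and with the replicate block. Of 37 further replication genes the median was 0.24, tRNA-Phe-3-1-/- A and C were highest for 5, and Rfc3, a subunit of the loader of the Pcna clamp, was called (159, 152 and 178 in WT, 306, 239.7 and 247 in tRNA-Phe-3-1-/-, difference 0.69 ± 0.13, adjusted p 0.0391, and 0.56 with an adjusted p of 0.169 without replicates A and C). The call of Rfc3, 1 of 36 tested, was lost without any of 10 of the 12 livers (0.0572 to 0.119), without a filter, without the trend and with the block. Of 27 regulators of the cycle (E2F, RB, DREAM, cyclin D and Cdc25 genes) none had tRNA-Phe-3-1-/- A and C as its 2 highest livers, none was called, with 3 at an unadjusted p under 0.05, and the median was 0.085. None of 20 CDK inhibitor and p53 target genes was called in this line either, with 6 at an unadjusted p under 0.05 and a median of -0.15. Over all genes, 2550 of 15856 had an unadjusted p under 0.05 in this contrast.

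In tRNA-Phe-1-1-/- livers 4 of 49 further mitosis genes tested, 5 of 36 replication genes, 3 of 26 regulators and 4 of 18 inhibitors and p53 targets were called, beside 17.3% of all genes in this line. Of the mitosis list, Aspm, a spindle pole protein, rose from 42.0, 40.5 and 25.9 in WT to 75.3, 105 and 201 (1.69 ± 0.38, adjusted p 0.0108), Bub3 of the spindle checkpoint rose by 0.33 ± 0.10 (adjusted p 0.0463, lost without any of 8 single livers at 0.0553 to 0.147, without a filter or the trend, after quantile scaling and with the block), Cks2, a Cdk1-binding subunit, fell from 443, 434 and 460.5 to 277, 220.4 and 301 (-0.75 ± 0.16, adjusted p 0.00781), and Kif18a fell as well. In the replication list the GINS subunit Gins3 rose (1.43 ± 0.32, adjusted p 0.0114), while the clamp loader subunit Rfc5 (292, 374 and 266 in WT, 145, 135 and 149 in tRNA-Phe-1-1-/-, difference -1.10 ± 0.20, adjusted p 0.00370), thymidine kinase Tk1 (-0.96 ± 0.22, adjusted p 0.0122), Pola1 and Rpa3 fell. These stand beside Ccne1, Rrm2 and Pcna, which rose in the same livers. The regulators called all rose: Lin52, a subunit of the DREAM complex that holds cell cycle genes silent (200.3, 219 and 211 in WT, 396, 363 and 356 in tRNA-Phe-1-1-/-, difference 0.82 ± 0.13, adjusted p 0.00200), cyclin D3 (Ccnd3, 0.56 ± 0.11, adjusted p 0.00610) and the E2F partner Tfdp1 (0.40 ± 0.12, adjusted p 0.0429). The call of Tfdp1 was lost without any of 9 single livers (0.0507 to 0.161), without a filter or the trend, after quantile scaling and with the block. The call of Aspm was lost without WT C (0.0514), and that of Sesn2, below, without WT B or C (0.0560 to 0.0646). The inhibitors and p53 targets called all rose as well: Ccng1 (0.49 ± 0.11, adjusted p 0.00936), Zmat3 (0.65 ± 0.15, adjusted p 0.0119), Sesn2 (0.64 ± 0.15, adjusted p 0.0147) and Phlda3. Kif18a, Pola1, Rpa3 and Phlda3 are named to complete these counts and were chosen after their values were seen.  The medians of the 4 lists in this line were -0.097, -0.11, 0.11 and 0.067. In tRNA-Phe-2-1-/- livers limma called no gene of the 4 lists, with 4, 6, 4 and 5 at an unadjusted p under 0.05, beside 2365 of 15856 genes.

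Markers of other cells moved in part with these results, and their part in them was not tested. The 8 macrophage and Kupffer cell markers summed to 13110, 7955 and 10670 in tRNA-Phe-3-1-/- A, B and C against 8463, 8203 and 7783 in WT, 10490, 8148 and 7877 in tRNA-Phe-1-1-/- and 8504, 9135 and 8618 in tRNA-Phe-2-1-/-. No marker was at 0 in any of these livers. The sum was higher in replicates A and C of tRNA-Phe-3-1-/-, which had the high mitosis genes, than in replicate B or WT. Of the 8, 0 were called against WT and 4 had an unadjusted p under 0.05, beside 2550 of 15856 genes. The 6 microglia markers, which share Csf1r with this list, summed to 3860, 2156 and 3171 in tRNA-Phe-3-1-/- against 2407, 2239 and 2708 in WT, 2797, 2315 and 2358 in tRNA-Phe-1-1-/- and 2497, 2622 and 2315 in tRNA-Phe-2-1-/-. Replicates A and C were again the highest, with 0 of the 6 called against WT and 2 at an unadjusted p under 0.05, beside the same 2550 genes. Granulocyte precursor markers summed to 85.5, 33.8 and 40.2 in tRNA-Phe-3-1-/-, with Elane at 0 in all 3, against 12.7, 38.5 and 42.8 in WT. T and NK cell markers summed to 217, 107 and 135 against 93.8, 103 and 193 and erythroid markers to 19850, 21560 and 24870 against 15370, 19450 and 15360, and none of these 3 lists had replicates A and C both above all WT livers and replicate B within them. In tRNA-Phe-1-1-/- livers, which had the highest means of Ccne1 and Rrm2, 3 of 8 erythroid markers fell (Hba-a1, Hbb-bs and Slc4a1). Of 8 granulocyte markers 3 rose (S100a8, S100a9 and Prtn3), and the 8 summed to 191, 312 and 106. The 6 B cell markers summed to 41.4 to 99.6 in this line against 126 to 310 in WT. Over all genes, 17.3% were called in this line against WT.

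In brain, no member was called in any contrast by limma. The mitosis scores were 0.04, 0.25 and 0.27 in WT, -0.31, -0.24 and 0.28 in tRNA-Phe-1-1-/-, -0.27, -0.62 and 0.03 in tRNA-Phe-2-1-/- and -0.26, 0.48 and 0.33 in tRNA-Phe-3-1-/-. The G1 and S phase scores were 0.03, 0.12 and 0.08 in WT, -0.10, -0.23 and 0.10 in tRNA-Phe-1-1-/-, -0.01, -0.28 and -0.04 in tRNA-Phe-2-1-/- and 0.01, 0.22 and 0.10 in tRNA-Phe-3-1-/-. Every tRNA-Phe-2-1-/- brain lay below every WT brain in both scores, which were not tested. Replicate B of tRNA-Phe-3-1-/-, not A or C, was the highest brain in both. Over the mitosis genes the median log2 difference from WT was -0.23 in tRNA-Phe-1-1-/-, -0.43 in tRNA-Phe-2-1-/- (23 of 29 lower) and 0.070 in tRNA-Phe-3-1-/-, beside -0.00059, -0.0016 and 0.0018 over all genes. Over the G1 and S phase genes the medians were -0.12, -0.14 and 0.024. With single brains left out the mitosis medians ran from -0.39 to -0.13, from -0.54 to -0.31 and from -0.11 (without tRNA-Phe-3-1-/- B) to 0.29 (without tRNA-Phe-3-1-/- A). The last was also negative without WT A or tRNA-Phe-3-1-/- C and after quantile scaling. The G1 and S phase medians ran from -0.17 to -0.015, from -0.24 to -0.070 and from -0.021 to 0.13.

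**Figure D4:**
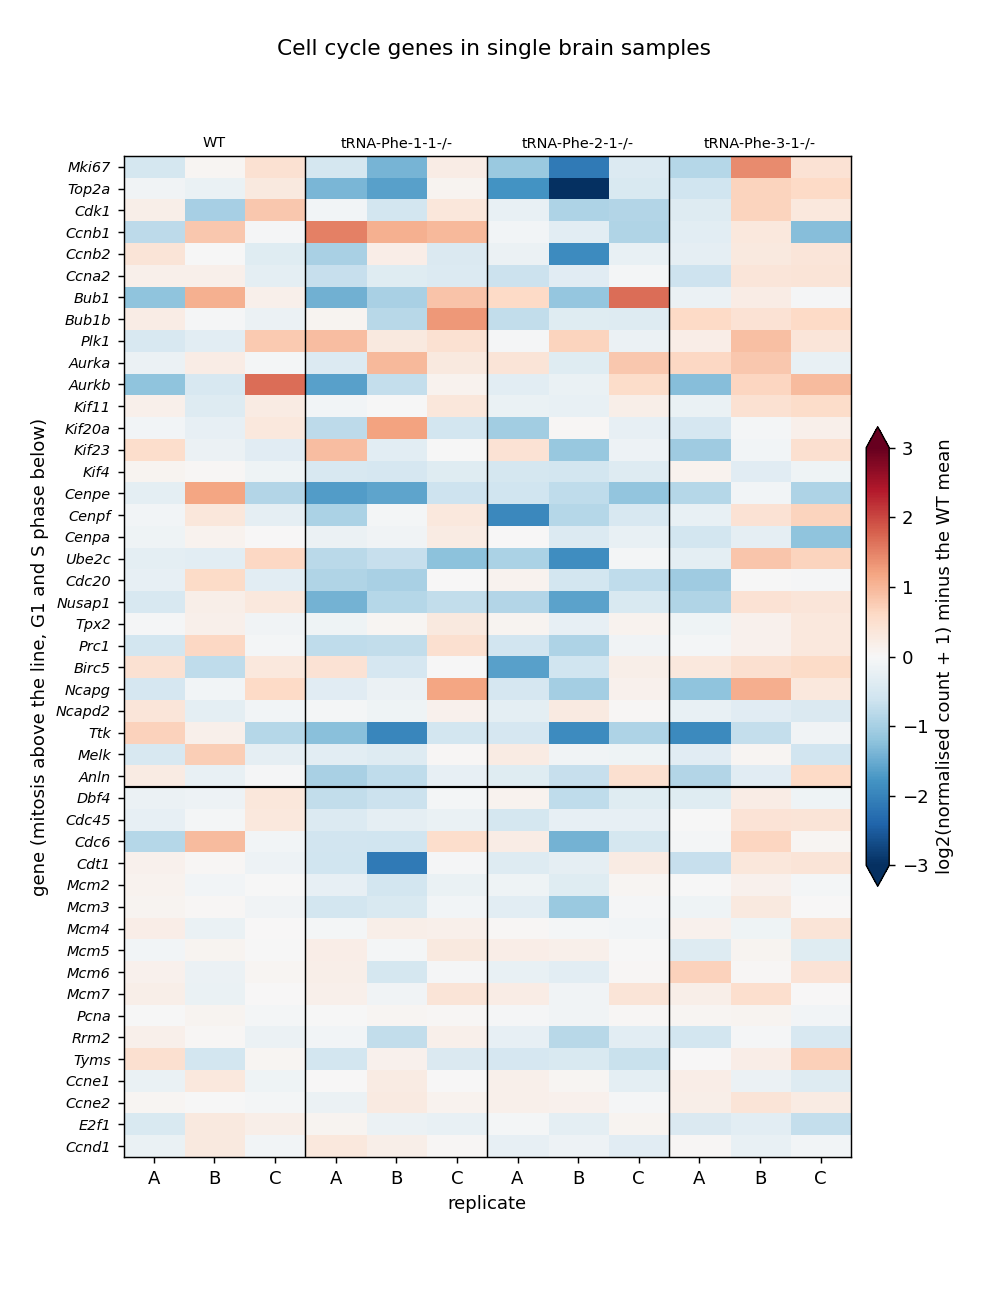
Each row is a cell cycle gene and each column a single brain; colour is log2(normalised count + 1) minus the WT mean, on the scale used for liver. Most mitosis genes are blue in tRNA-Phe-2-1-/- B and red in tRNA-Phe-3-1-/- B, and Ccnb1 is red in the 3 tRNA-Phe-1-1-/- brains.

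Mki67 was read at 92.4, 139.5 and 184 in WT brains, 92.8, 49.9 and 156 in tRNA-Phe-1-1-/-, 61.5, 30.1 and 99.7 in tRNA-Phe-2-1-/- and 73.3, 355 and 179.7 in tRNA-Phe-3-1-/-. Top2a was at 117, 111 and 157 in WT, 48.1, 40.5 and 135 in tRNA-Phe-1-1-/-, 35.9, 11.2 and 91.6 in tRNA-Phe-2-1-/- and 84.0, 201 and 194 in tRNA-Phe-3-1-/-. All tRNA-Phe-2-1-/- brains were below all WT brains in Top2a, with a log2 difference of -1.88 ± 0.67 and an adjusted p of 0.892. Cenpf was at 65.9, 87.7 and 57.6 in WT, 17.4, 38.0 and 49.5 in tRNA-Phe-2-1-/- and 59.3, 94.2 and 111 in tRNA-Phe-3-1-/-, again with every tRNA-Phe-2-1-/- brain below WT (-1.09 ± 0.42, adjusted p 0.892). Beside these, the summed granulocyte precursor markers were 151, 919.8 and 599 in tRNA-Phe-3-1-/-, 98.4, 79.3 and 401 in WT and 74.9, 51.4 and 87.9 in tRNA-Phe-2-1-/-, and the neural progenitor and neuroblast markers 3266, 5447 and 3190 in tRNA-Phe-3-1-/- against 3154, 3158 and 3433 in WT. Replicate B of tRNA-Phe-3-1-/- was thus also the highest of its line in both marker lists. The progenitor and neuroblast markers summed to 2918 to 3598 in tRNA-Phe-2-1-/-, which overlapped WT, and to 3194 to 4273 in tRNA-Phe-1-1-/-. The part of both lists in the result was not tested.

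Ccnb1 behaved apart from the other mitosis genes in brain. Its values were 66.7, 205 and 114 in WT, 333, 243 and 230.5 in tRNA-Phe-1-1-/-, 109.8, 93.8 and 61.3 in tRNA-Phe-2-1-/- and 92.7, 144 and 47.4 in tRNA-Phe-3-1-/-. Every tRNA-Phe-1-1-/- brain was above every other brain, while the Cdk1 partner of cyclin B was at 14.9, 10.4 and 20.0 in tRNA-Phe-1-1-/- and 18.0, 7.40 and 28.2 in WT. The log2 difference of tRNA-Phe-1-1-/- was 1.19 ± 0.44 from WT (adjusted p 0.219), 1.62 ± 0.44 from tRNA-Phe-2-1-/- (adjusted p 0.129), and that of tRNA-Phe-3-1-/- from tRNA-Phe-1-1-/- was -1.61 ± 0.44 (adjusted p 0.0883). DESeq2 on the recovered reads called Ccnb1 in both contrasts between lines, and edgeR did not.

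Kif4 had lower values in tRNA-Phe-1-1-/- and tRNA-Phe-2-1-/- brains than in WT but was not called. It was at 65.9, 64.5 and 57.6 in WT, 44.7, 43.6 and 48.1 in tRNA-Phe-1-1-/-, 43.1, 42.4 and 47.3 in tRNA-Phe-2-1-/- and 66.8, 48.9 and 57.3 in tRNA-Phe-3-1-/-. The 6 tRNA-Phe-1-1-/- and tRNA-Phe-2-1-/- brains were below all WT brains, with log2 differences of -0.45 ± 0.17 (adjusted p 0.232) and -0.49 ± 0.17 (adjusted p 0.892). Cenpe was at 103, 288 and 68.8 in WT and 39.0, 41.6 and 82.2 in tRNA-Phe-1-1-/- (-1.29 ± 0.48, adjusted p 0.213), with WT B far above the other WT brains. Nusap1 was at 20.5, 32.8 and 36.1 in WT, 10.3, 15.6 and 17.0 in tRNA-Phe-1-1-/- and 15.4, 8.93 and 20.7 in tRNA-Phe-2-1-/-, with differences of -1.0 ± 0.43 (adjusted p 0.287) and -0.98 ± 0.43 (adjusted p 0.894). Anln, the actin-binding anillin of the cleavage furrow, which oligodendrocytes also make, was at 1156, 829.6 and 947 in WT and 528, 767 and 1469 in tRNA-Phe-3-1-/- and was highest in replicate C, not B.

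**Figure D5:**
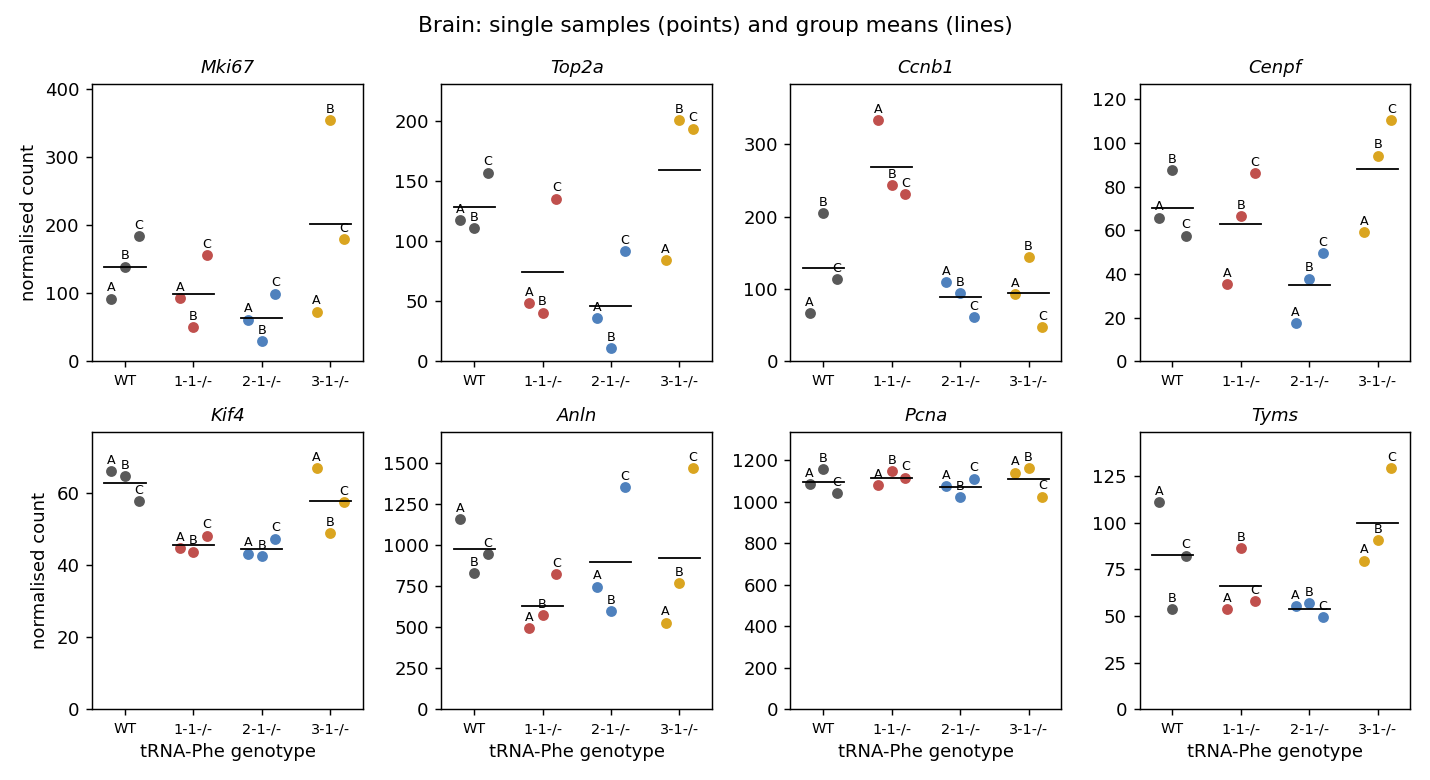
Normalised counts of 8 genes in the 12 brains, with points for samples, letters for replicates and lines for group means. Ccnb1 is highest in the 3 tRNA-Phe-1-1-/- brains, Kif4 is lower in tRNA-Phe-1-1-/- and tRNA-Phe-2-1-/- than in WT, and Pcna lies between 1022 and 1162 in every brain.

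The G1 and S phase genes gave no call in brain, and those that set liver lines apart did not do so here. Pcna was at 1083, 1157 and 1041 in WT, 1080, 1146 and 1115 in tRNA-Phe-1-1-/-, 1073, 1022 and 1111 in tRNA-Phe-2-1-/- and 1139, 1162 and 1024 in tRNA-Phe-3-1-/-, and Ccne1, raised in tRNA-Phe-1-1-/- liver, was at 319, 456 and 331 in WT and 369, 429 and 364 in tRNA-Phe-1-1-/- brain. Dbf4 was at 73.6, 75.0 and 105 in WT, 49.3, 53 and 80.2 in tRNA-Phe-1-1-/-, 90.3, 49.1 and 64.2 in tRNA-Phe-2-1-/- and 64.7, 97.7 and 76.0 in tRNA-Phe-3-1-/- so that no line lay above WT. Rrm2 was at 58.2, 53.9 and 46.3 in WT and 49.3, 31.2 and 58.1 in tRNA-Phe-1-1-/-. Mcm2 was at 198, 173 and 184 in WT and 155, 127 and 161 in tRNA-Phe-1-1-/-, where all 3 brains were below WT (-0.33 ± 0.14, adjusted p 0.285). Mcm6 was at 281, 230.4 and 268 in WT and 419, 264 and 343 in tRNA-Phe-3-1-/-, where replicates A and C were the 2 highest brains. Tyms was at 111, 53.9 and 82.4 in WT, 55.4, 56.9 and 49.5 in tRNA-Phe-2-1-/- and 79.7, 90.8 and 129 in tRNA-Phe-3-1-/-. Cdc45 was at 41.1, 46.5 and 61.0 in WT, 33.9, 41.3 and 41.4 in tRNA-Phe-2-1-/- and 48.5, 65.5 and 64.2 in tRNA-Phe-3-1-/-, and for both genes the WT and knockout brains overlapped. Ccnd1 was at 1385, 1966 and 1509 in WT, 1996, 1808 and 1628 in tRNA-Phe-1-1-/- and 1354, 1446 and 1275 in tRNA-Phe-2-1-/-, with a difference of 0.41 ± 0.13 between these lines (adjusted p 0.186). E2f1 was at 151, 256 and 235 in WT and 155, 168 and 127 in tRNA-Phe-3-1-/- (-0.48 ± 0.20, adjusted p 0.371).

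Of the 44 members tested in brain, limma called 0 in each contrast with WT, beside 1.05% of all genes in tRNA-Phe-1-1-/-, 0% in tRNA-Phe-2-1-/- and 0% in tRNA-Phe-3-1-/-. The numbers at an unadjusted p under 0.05 were 5, 4 and 2, beside 3063, 1071 and 2373 of 19228 genes. edgeR and DESeq2 called 0 in all 3. Between lines 0 were called of tRNA-Phe-1-1-/- against tRNA-Phe-2-1-/- (0.53% of all genes, 2 members at an unadjusted p under 0.05), of tRNA-Phe-3-1-/- against tRNA-Phe-1-1-/- (2.11%, 7 members) and of tRNA-Phe-3-1-/- against tRNA-Phe-2-1-/- (0%, 9 members), where edgeR called 0 in each and DESeq2 called Ccnb1 in the first and the second, beside 3.49% and 6.85% of all genes. Over all genes, 2631, 3755 and 1910 of 19228 had an unadjusted p under 0.05 in these 3 contrasts between lines in turn. The F-test called 0 beside 0.634% of all genes, and DESeq2 again called Ccnb1, beside 8.23%. By the F-test 4 members had an unadjusted p under 0.05, beside 3387 of 19228 genes. Of the further lists limma called no gene against WT in brain (10, 5 and 5 of 47 further mitosis genes tested had an unadjusted p under 0.05 in the 3 lines in turn), and the 2 genes of each with the lowest F-test p were Ncapd3 and Kif18a (mitosis), Pola2 and Rfc3 (replication), Ccnd2 and Lin37 (regulators) and Gadd45b and Btg2 (inhibitors and p53 targets), with adjusted p between 0.0577 and 0.205. Kif18a, a kinesin that shortens kinetochore microtubules, was at 70.1, 100.4 and 80.1 in WT and 53.9, 41.6 and 40.1 in tRNA-Phe-1-1-/- brain, and cyclin D2 (Ccnd2) at 978, 1521 and 1351 in WT and 2294, 1810 and 1704 in tRNA-Phe-1-1-/- brain. Neither gene overlapped between the 2 groups.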

How the data were processed

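Total RNA of brain and liver from 24 samples (4 genotypes, 3 replicates, 2 tissues) had been sequenced. The authors trimmed the reads (Trim Galore with cutadapt), aligned them with STAR to GRCm38.p6, quantified transcripts with Salmon with strand and with corrections of sequence and GC bias, summed them per gene and scaled each tissue with DESeq2. The deposited signal is a normalised count per gene: the estimated reads of a sample divided by its size factor, tissue by tissue. The tissues were therefore fitted apart and set side by side as differences from their own WT. The exception is the hepatocyte marker sums, which are not on the same scale in the tissues. Deposited tables of the authors' own comparisons hold fold changes and s-values and were not used. Whole reads could be recovered for 100% of values within 0.1 read, and depth was 30365760 to 51584522 reads per sample. Ensembl IDs were named through GENCODE (93.23% of genes matched).

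limma 3.58.1 in R 4.3.3 was fitted to log2(normalised count + 1) with a variance trend over the 12 samples of a tissue, on genes averaging 10 or more, with Benjamini-Hochberg adjustment over all genes tested and a two-sided threshold of 0.05. The SE is that of the moderated fit. Medians and sample scores run over all 46 genes without a filter and carry no test. The members and the further lists were chosen with earlier results of these data known. Values in every sample are given for genes called against WT, for the 4 mitosis and the 4 G1 and S phase genes with the lowest F-test p in each tissue, and for Mki67, Top2a, Ccnb1, Pcna, Mcm2 and Ccnd1; of each further list up to 3 genes called per contrast are named, or else the 2 with the lowest F-test p. Other genes shown were chosen after their values were seen. The fit was first tested on simulated data, in the contrast of tRNA-Phe-3-1-/- with WT, with each changed gene given the same fold in all replicates of the line. Of 2-fold changes in genes below 100 normalised counts it recovered 0 of 24 in liver and 0 of 27 in brain. At 100 or more it recovered 47 of 66 and 51 of 65. Of 4-fold changes below 100 it recovered 17 of 31 and 15 of 38. A member of low count that was not called can thus still differ. Genes called falsely numbered 7 in liver and 6 in brain. A rise in only some replicates of a line was not simulated, so these recoveries do not apply to it. Alternatives were a pseudocount of 0.1 or 5, the filter left off or set at 50, quantile or trimmed-mean scaling, no trend, a replicate block, edgeR 4.0.16 and DESeq2 1.42.0 on the recovered reads, each library left out, and, added after seeing the data, tRNA-Phe-3-1-/- livers A and C left out together. No 2 replicates agreed within sampling noise. Promoters are RefSeq's. The deleted tRNA genes were not analysed here. Not every marker list is reported here in both tissues.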

Additional observations from a re-analysis of the deposited data

Results flagged for a closer look

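For the following genes every liver of a knockout line lay on one side of the WT mean of log2(normalised count + 1) and every brain of that line on the other. The difference between the tissues was not tested in any of them. In tRNA-Phe-1-1-/-, the log2 difference from WT of Dbf4 was 0.55 in liver and -0.48 in brain, and that of Cdc45 was 0.14 in liver and -0.29 in brain. In tRNA-Phe-2-1-/-, Kif4 was at 0.39 in liver and -0.49 in brain, Cdc45 at 0.61 and -0.33, Tyms at 0.19 and -0.55, and the score of the G1 and S phase genes at 0.16 and -0.19. In tRNA-Phe-3-1-/-, Cenpe was at 1.86 in liver and -0.62 in brain, and Rrm2 at 0.19 and -0.35. None of these differences was called within its tissue by limma. No outlier test was made on single libraries, since each group held 3 samples.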

How the results depend on the processing

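Deviations of samples with the same letter correlated at -0.294 to 0.236 in liver and -0.164 to 0.492 in brain. Those of samples with different letters correlated at -0.361 to 0.368 and -0.358 to 0.329. With 3 replicates per group these overlapping ranges do not settle whether the letters pair samples. The replicate block therefore serves only as an alternative. With the replicate block the liver counts of genes called were 0 for tRNA-Phe-3-1-/- against WT, 1 for the contrast of tRNA-Phe-1-1-/- with tRNA-Phe-2-1-/- and 3 for tRNA-Phe-3-1-/- against tRNA-Phe-1-1-/-, and of the called genes given with values against WT, Rrm2, Dbf4, Bub3, Spc25, Rfc3 and Tfdp1 were no longer called (adjusted p 0.0601 to 0.0763). DESeq2 on the recovered reads called more members in liver, beside larger shares of all genes than limma: 5, 1 and 8 in the 3 lines against WT, 18 for tRNA-Phe-3-1-/- against tRNA-Phe-1-1-/-, 3 for tRNA-Phe-3-1-/- against tRNA-Phe-2-1-/- and 23 by its test over all genotypes, and in brain 1 (Ccnb1) in tRNA-Phe-1-1-/- against tRNA-Phe-2-1-/-, 1 in tRNA-Phe-3-1-/- against tRNA-Phe-1-1-/- and 1 over all genotypes. edgeR called 8 for tRNA-Phe-3-1-/- against tRNA-Phe-1-1-/- and 8 over all liver genotypes. Quantile scaling gave 2 for tRNA-Phe-3-1-/- against WT and 6 over all genotypes, and ended the call of Pcna (adjusted p 0.0643). Without a filter tRNA-Phe-3-1-/- against tRNA-Phe-1-1-/- gave 3, and with a mean of at least 50 it gave 2, and tRNA-Phe-1-1-/- against tRNA-Phe-2-1-/- gave 1. The causes were not tested.

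With tRNA-Phe-3-1-/- livers A and C left out together (chosen after seeing the data, with the lone liver assumed to vary like the other groups), the line against WT gave 0 genes and against tRNA-Phe-1-1-/- 1 (Ccne2). The mitosis median became -0.11 and the mitosis score difference -0.034, the G1 and S phase median became -0.046 and its score difference 0.12, and Ccnb1, the median gene, -0.11. Leaving out each library in turn, the liver counts ran from 1 to 3 (tRNA-Phe-1-1-/- against WT), 0 to 2 (tRNA-Phe-3-1-/- against WT), 1 to 2 (tRNA-Phe-1-1-/- against tRNA-Phe-2-1-/-), 0 to 19 (tRNA-Phe-3-1-/- against tRNA-Phe-1-1-/-) and 2 to 16 (all genotypes), the G1 and S phase median from 0.11 to 0.35 in tRNA-Phe-1-1-/- and from 0.26 to 0.89 in tRNA-Phe-3-1-/-, and all brain counts stayed at 0. Other pseudocounts and trimmed-mean scaling moved no count by over 1.5 times. The filter, trend, edgeR and DESeq2 alternatives were not run for medians and scores. Ube2c, Ttk, Plk1 and Cdc6 lay below 10 normalised counts in every WT liver, so their ratios rest on few reads.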

Other observations

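Values of 3 genes of the further lists, chosen after they were seen, complete the account of the liver. Foxm1, the factor that drives G2 and M genes, was read at 16.6, 24.7 and 10.4 normalised counts in WT, 8.47, 26.4 and 6.14 in tRNA-Phe-1-1-/-, 7.21, 52.2 and 5.53 in tRNA-Phe-2-1-/- and 43.2, 6.75 and 33.2 in tRNA-Phe-3-1-/-. Mybl2, which works with it, was at 14.7, 14.8 and 25.9 in WT and 27.9, 6.75 and 7.04 in tRNA-Phe-3-1-/-. Cdkn1a, the CDK inhibitor p21, was at 123, 107 and 101 in WT, 41.4, 316 and 24.6 in tRNA-Phe-1-1-/-, 36.9, 33.7 and 20.3 in tRNA-Phe-2-1-/- and 77.8, 16.9 and 40.2 in tRNA-Phe-3-1-/-.

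Endothelial markers of the liver summed to 10960, 12430 and 11490 in WT and 12920, 14380 and 13290 in tRNA-Phe-3-1-/-, and hepatocyte markers to 3097000, 3759000 and 3576000 and 3876000, 3301000 and 3328000. Stellate cell and fibroblast markers summed to 8716, 8039 and 8468 in WT and 10130, 7237 and 7576 in tRNA-Phe-3-1-/-, bile duct cell markers to 975, 909 and 846 and 878, 947 and 1142, and neuron markers to 186, 285 and 328 and 378, 339 and 459, where all 3 tRNA-Phe-3-1-/- livers were above WT; limma called none of these markers in this line. In brain, the erythroid markers summed to 10870, 11940 and 19350 in WT, 8872, 11020 and 4638 in tRNA-Phe-2-1-/- and 13540, 11680 and 25790 in tRNA-Phe-3-1-/-, and the oligodendrocyte precursor markers to 4177, 4647 and 4496, 3676, 4044 and 4227 and 4965, 4147 and 5439 in the same groups.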
